A study of Mus musculus with 15 samples.

Results

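A set of 10 textbook genes of alternative macrophage activation was followed in MH-S, a mouse line of SV40-transformed alveolar macrophages. They were taken by symbol from the 78317 Ensembl gene identifiers in the count table, namely Il4ra, Mgl2, Clec10a, Ccl17, Ccl22, Ccl24, Chil3, Retnla, Alox15 and Tgm2. Bulk RNA-seq counts covered 15 libraries in 5 groups of 3 wells after 24 h. M0 cells had medium alone, M1 cells LPS (1 µg/mL) plus IFN-γ (20 ng/mL), and M2 cells IL-4 (20 ng/mL). The 2 remaining groups had microrods at 0.1 mg/mL built on calcium phosphate (CaP) or silica (SiO2) nanoparticles, both bound with alginate and layers of protamine and carboxymethyl chitosan. Each microrod well had its own particle batch, but all wells came from 1 cell passage of 1 line, so p-values measure the spread between wells and particle batches only.

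IL-4 binds a receptor whose ligand-binding chain is encoded by Il4ra, paired on macrophages with the common gamma chain (Il2rg) or with Il13ra1. Janus kinases on these chains phosphorylate STAT6, which then enters the nucleus and binds palindromic sites of the form TTCNNNNGAA. In the lung this programme is known from helminth infection, allergy and repair, where macrophages make lectins, chitinase-like proteins, arginase and chemokines that draw in eosinophils and T cells.

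The name of the set fitted only some of its members in these cells. IL-4 raised 3 of the 7 genes that could be tested (2.00% of all genes tested were called higher), the lectins Mgl2 and Clec10a and the eosinophil chemokine Ccl24. Ccl17 and Ccl22, which encode the ligands of CCR4, a chemokine receptor on T cells, were high in M1 cells and near the detection limit in M2 cells. Chil3, Retnla and Alox15 had at most 11 counts in any library, and Il4ra and Tgm2 were not called higher with IL-4. Of the same 7 genes, 0 passed the test in cells exposed to CaP or SiO2 microrods, where 0.654% and 0.264% of all genes tested did. At these shares 0 of 7 does not set the members apart from other genes. Since the RNA was bulk, fewer expressing cells and less RNA per cell cannot be told apart.

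Libraries held between 8459643 and 68750050 counts. Levels are given as CPM, counts per 1000000 of the TMM-scaled library, and 1 count was worth from 0.0143 CPM in the deepest library to 0.132 CPM in M2 replicate 2. That library had the lowest scaling factor, 0.885, and leaving it out raised the number of genes called between M2 and M0 from 687 to 1361. The reads carried no molecular identifiers, so amplified copies count as separate reads and limits from counts cover counting error only. A gene was at the floor in a group when no library of it had more than 3 counts. Macrophage genes were present, with Cd68 at 979 CPM and Lyz2 at 1847 CPM in M0, and 13 of the 14 macrophage markers listed passed 3 counts in some library. The summed level of these markers ran from 1422 to 2168 CPM in M2 and from 2684 to 3630 CPM in M0, with Lyz2 called lower in M2, at 368 CPM (adjusted p = 3.10e-06), and Adgre1 called higher, at 195 CPM against 61.8 CPM in M0 (adjusted p = 0.00908). The part of these shifts in the results was not tested. Of 6 dendritic cell markers 5 passed 3 counts in some library. The sum of the 6 ran from 17.7 to 22.8 CPM in M0 and from 4.13 to 4.92 in M1. In M2 it ran from 14.8 to 45.1, highest in M2 replicate 2. It was mostly Cd209a in M0 and M2, while in M1 Cd209a averaged 0.770 CPM and Ccr7 2.13 CPM. Ccr7, of the same list, went the other way in M1, with 15, 35 and 28 counts against 0 in all M0 and M2 libraries (at least 10.3-fold higher than M0, adjusted p = 0.000640). Alveolar markers were low, with Siglecf at the floor in M0 and Car4 at the floor in every group. Of the 6 epithelial markers 0 passed 3 counts in any library, of 4 fibroblast markers 2 did, of 4 lymphocyte markers 1 and of 4 eosinophil and mast cell markers 2, and the highest sum of any of these 4 lists in a library was 0.486 CPM.

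Promoters stood in RefSeq's table for 6 of the 10 genes, Chil3, Retnla, Mgl2, Ccl17, Ccl22 and Il4ra. The 4 shown cover the member that rose most with IL-4, the pair that rose in M1 cells and a classical STAT6 target that stayed near 0. Each line holds the 250 bases before the start, 5′ to 3′ on the gene's strand, in build GRCm38.p6, which is not the authors' GRCm39. Capitals mark motif matches.
Mgl2 promoter, chr11:70130107-70130356, forward strand: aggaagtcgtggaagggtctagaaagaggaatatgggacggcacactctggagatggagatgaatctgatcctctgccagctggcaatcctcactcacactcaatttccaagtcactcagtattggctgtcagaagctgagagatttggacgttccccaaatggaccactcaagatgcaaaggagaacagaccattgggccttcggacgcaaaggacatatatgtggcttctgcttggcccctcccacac
Ccl17 promoter, chr8:94810203-94810452, forward strand: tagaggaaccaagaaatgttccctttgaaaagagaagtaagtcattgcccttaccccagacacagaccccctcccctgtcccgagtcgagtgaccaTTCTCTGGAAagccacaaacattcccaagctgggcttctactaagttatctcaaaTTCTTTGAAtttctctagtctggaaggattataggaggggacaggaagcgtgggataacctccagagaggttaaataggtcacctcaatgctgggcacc
Ccl22 promoter, chr8:94745434-94745683, forward strand: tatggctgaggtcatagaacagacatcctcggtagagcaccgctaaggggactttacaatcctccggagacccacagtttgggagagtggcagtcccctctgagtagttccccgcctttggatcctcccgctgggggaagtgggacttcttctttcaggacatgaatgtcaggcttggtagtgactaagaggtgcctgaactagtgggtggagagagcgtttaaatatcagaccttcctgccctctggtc
Retnla promoter, chr16:48842359-48842608, forward strand: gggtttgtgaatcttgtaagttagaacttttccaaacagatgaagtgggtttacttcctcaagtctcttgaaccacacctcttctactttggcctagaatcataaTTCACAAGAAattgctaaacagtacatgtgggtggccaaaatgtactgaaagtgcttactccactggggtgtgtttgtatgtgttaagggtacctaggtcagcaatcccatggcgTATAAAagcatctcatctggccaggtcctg

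The letters searched on both strands were TTCNNNNGAA (STAT6-type), TTCNNNGAA (STAT-type with a 3-base spacer), GGGANTTNCC (NF-kB-type) and TATAAA (bound by the TATA-binding protein). Over the 32851 promoters of the table, 5.85% held the first, 7.02% the second, 0.98% the third and 12.4% the fourth. Retnla had TTCACAAGAA from 145 to 136 bases before its start and TATAAA from 30 to 25 bases before it. Ccl17 had TTCTCTGGAA from 154 to 145 and TTCTTTGAA from 99 to 91 bases before its start. Chil3, not printed, had TTCTTAGAA from 172 to 164 bases before its start. In the windows of Mgl2, Ccl22 and Il4ra 0 matches were found, which says only that these letters are not in those 250 bases. A match is a description of the sequence and does not show binding.

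Mgl2 and Clec10a, neighbouring genes for C-type lectins that bind galactose and N-acetylgalactosamine, were the members most abundant in M2 cells. Mgl2 stood at 584, 451 and 433 CPM in the M2 libraries and at 2.37, 3.12 and 1.27 CPM in M0, so no M2 library came near any M0 library. The rise was 207-fold, a log2 fold change of 7.69 ± 0.34 (SE, adjusted p = 1.21e-08, edgeR's quasi-likelihood test with Benjamini-Hochberg adjustment, as for all adjusted p-values here unless DESeq2 is named). Clec10a read 214, 189 and 185 CPM in M2 against 14.1, 16.7 and 16.1 CPM in M0, a 12.6-fold rise (log2 fold change 3.65 ± 0.15, adjusted p = 6.91e-09). Both genes were thus expressed before stimulation, Clec10a at 15.7 ± 1.34 CPM and Mgl2 at 2.26 ± 0.929 CPM (SD, n = 3). The genes share 148 stretches of 75 bases, the read length, which make up 6.56% of the Mgl2 and 4.44% of the Clec10a stretches, so a small part of their reads could have been split between them by the authors' quantification.

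Ccl24, eotaxin-2, which attracts eosinophils through CCR3, was the third gene raised by IL-4. It measured 20.3, 27.2 and 20.5 CPM in M2 and 0.659, 0.846 and 1.04 CPM in M0, again without overlap. The rise was 28.5-fold (log2 fold change 4.83 ± 0.26, adjusted p = 6.91e-09). These 3 were the members called among the 7 that could be tested (687 of 16654 genes, 4.13%, were called in M2 against M0, 2.00% as higher and 2.13% as lower), where a call needs an adjusted p under 0.05 and a log2 fold change beyond 0.5 in either direction. All 3 were among the 43 genes (0.258%) called with a log2 fold change above 3, with Mgl2 at rank 5, Ccl24 at rank 20 and Clec10a at rank 38 of 16654 by size of rise. The median log2 fold change was 3.65 over the 7 and 0.07 over all genes tested, but genes pass the low-count filter more easily when some group is high. Without M2 replicate 2 the log2 fold changes were 7.75 for Mgl2, 3.68 for Clec10a and 4.71 for Ccl24, and all were still called.

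**Figure D1:**
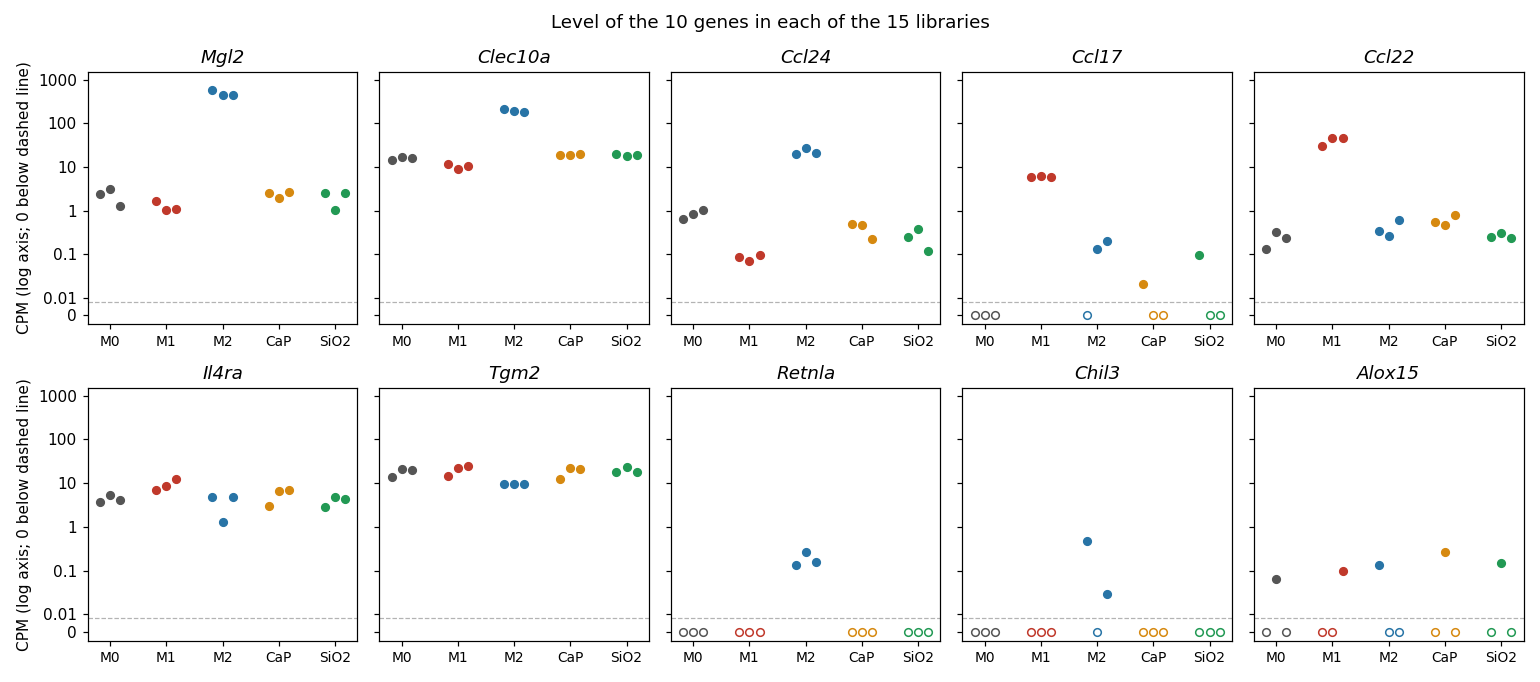
Level of each of the 10 genes (CPM, log axis, values of 0 drawn open below the dashed line) in the 3 libraries of each group. Mgl2, Clec10a and Ccl24 stand highest in the 3 M2 libraries, Ccl17 and Ccl22 in the 3 M1 libraries, and Retnla, Chil3 and Alox15 have no library above the 0.478 CPM of Chil3 in M2 replicate 1.

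Ccl17 and Ccl22 lie close together on chromosome 8 and encode chemokines that bring CCR4-bearing T cells, among them type 2 helper and regulatory T cells, to the tissue. Both are commonly listed as IL-4 targets. Ccl17 had 0 counts in all 3 M0 libraries, and 0, 1 and 14 counts in M2. In M1 it had 69, 90 and 60 counts, or 5.93, 6.15 and 5.83 CPM. Against the floor of 3 counts per library in M0, the M1 level was at least 28.8-fold higher (adjusted p = 4.20e-07). For M2 against M0 the adjusted p was 0.116, and the M2 mean of 0.111 CPM lay below the 0.207 CPM that 3 counts per M0 library would give.

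Ccl22, too, was highest in M1 cells. It stood at 30.0, 47.0 and 45.4 CPM in M1 and at 0.132, 0.325 and 0.232 CPM in M0, a 200.3-fold rise (log2 fold change 7.65 ± 0.35, adjusted p = 1.53e-09). In M2 it read 0.341, 0.263 and 0.615 CPM, overlapping M0, with a log2 fold change of 1.33 ± 0.50 and an adjusted p of 0.158. Without M2 replicate 3, the deepest library, that value was 0.64. The M2 level was 79.6-fold below the M1 level for Ccl22 (log2 fold change -6.32 ± 0.30, adjusted p = 2.20e-09) and 37.1-fold below it for Ccl17 (log2 fold change -5.21 ± 0.48, adjusted p = 7.41e-07). Without M2 replicate 3 these log2 fold changes were -6.99 and -6.86.

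In M1 cells 4 of the 7 tested members were called (14.1% of all genes tested were called in M1 against M0, 9.70% as higher and 4.37% as lower). Ccl17 and Ccl22 were higher, and Ccl24 and Clec10a lower. Genes pass the low-count filter more easily when some group is high. Outside M1, Ccl17 had at most 14 counts and Ccl22 at most 0.773 CPM in any library. The count of 4 is thus no test of the members against all genes. Ccl24 had exactly 1 count in each M1 library against 25, 13 and 9 counts in M0, which puts it at least 3.37-fold lower in M1 (adjusted p = 0.00145), though it was not tested with only the 6 libraries compared or with 10 counts required in every library. Clec10a measured 11.5, 9.16 and 10.5 CPM in M1, all below the M0 libraries (log2 fold change -0.59 ± 0.15, adjusted p = 0.0154). That call was lost without M0 replicate 2 (adjusted p = 0.0531), M1 replicate 2 (0.0851) or M1 replicate 3 (0.05003), and also without the low-count filter (0.256) and with only the 6 libraries compared (0.0680). Mgl2 read 1.63, 1.03 and 1.07 CPM in M1, overlapping M0 (log2 fold change -0.93 ± 0.38, adjusted p = 0.127). Without overlap, 3 tested members (Ccl17, Ccl22 and Il4ra) lay above M0 in M1 cells and 2 (Clec10a and Ccl24) below, where 20.2% and 12.0% of genes did. Over the 7 the median log2 fold change was 0.18, against -0.01 for all genes tested.

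**Figure D2:**
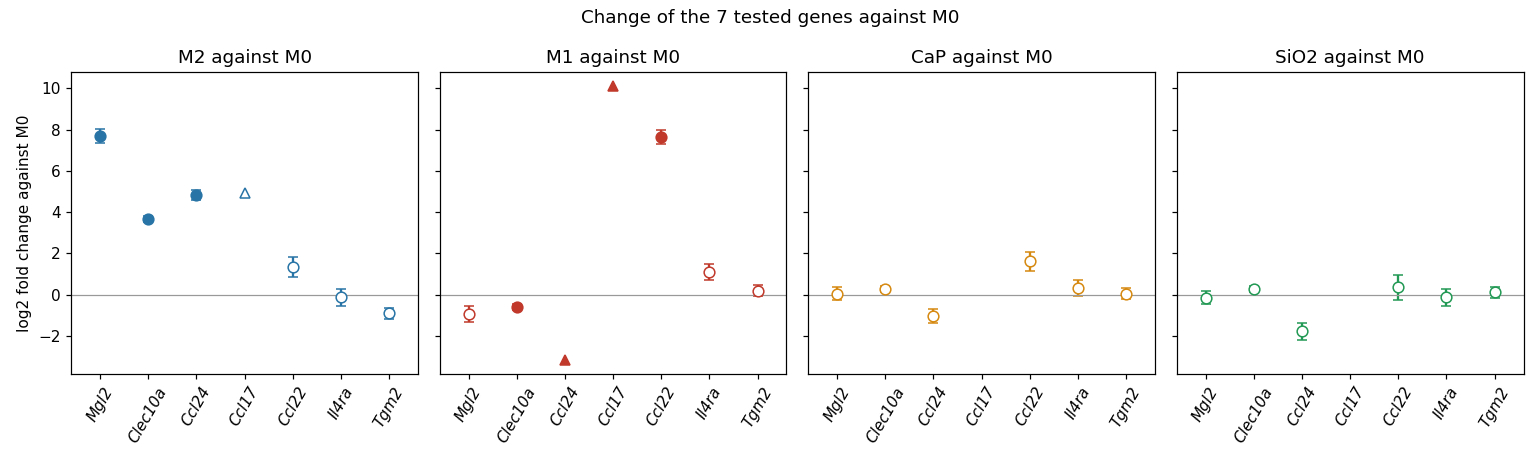
Log2 fold change against M0 of the 7 members tested, with the SE from the model, for M2, M1, CaP and SiO2. Filled symbols were called and open ones were not, triangles have a group at the floor of 3 counts and no SE, and Ccl17 is left out where both groups were at the floor. The called points are Mgl2, Clec10a and Ccl24 in M2, and Clec10a, Ccl24, Ccl17 and Ccl22 in M1.

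Set directly against each other, M2 and M1 cells differed in 6 of the 7 tested members (16.1% of genes were called between M2 and M1, 5.46% as higher in M2 and 10.6% as lower). The limit from the low-count filter holds for this count too. Mgl2 was 394-fold higher in M2 (log2 fold change 8.62 ± 0.37, adjusted p = 2.20e-09) and Clec10a 18.9-fold higher (4.24 ± 0.16, adjusted p = 4.25e-10). Ccl24 was at least 90.1-fold higher in M2, counted against the floor in M1 (adjusted p = 2.69e-10). The lectins and the eosinophil chemokine thus lay on one side, and both CCR4 ligands on the other.

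Il4ra, the receptor chain itself, read 3.79, 5.27 and 4.17 CPM in M0 and 4.91, 1.32 and 4.75 CPM in M2. M2 replicate 2 was low, with 10 counts, and the other M2 libraries lay within the M0 range. The log2 fold change was -0.13 ± 0.41 (adjusted p = 0.909) and turned to 0.16 without M2 replicate 2 and to 0.02 without M0 replicate 2. In M1 Il4ra stood at 7.14, 8.75 and 12.2 CPM, above all M0 libraries, but the difference of 1.09 ± 0.41 on the log2 scale was not called (adjusted p = 0.0920). It was called without the low-count filter (0.0247) and with only the 6 libraries compared (0.0456). Between M2 and M1 the adjusted p was 0.0537 for a log2 fold change of -1.23 ± 0.40, and DESeq2 (17.1% of genes called) gave 0.0209, the fit without a filter 0.00595 and the fit without CaP replicate 1 0.0268. An opposite-strand gene, Gm44876, overlaps 571 exon bases of Il4ra, and Smart-seq2 does not mark strand, so its reads cannot be told apart there.

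Tgm2, transglutaminase 2, cross-links proteins and is a widely used marker of IL-4-stimulated macrophages. Its M2 libraries stood at 9.69, 9.61 and 9.59 CPM, below the 13.6, 21.2 and 19.6 CPM of M0. The log2 fold change of -0.90 ± 0.27 missed the threshold (adjusted p = 0.0819), while DESeq2 called it beside the other 3 (0.0253, with 5.97% of genes called by DESeq2), as did the fit with a replicate block (0.0455) and the one without CaP replicate 1 (0.0342). It was the 1 tested member with all M2 libraries below all M0 libraries, as 8.20% of genes were, and Mgl2, Clec10a and Ccl24 were the 3 with all above, as 7.03% were. M1 libraries had 14.5, 22.6 and 24.1 CPM, and Tgm2 was called lower in M2 than in M1 (log2 fold change -1.08 ± 0.27, adjusted p = 0.0136). This last call was lost without M1 replicate 2 (0.0537), M1 replicate 3 (0.0592) or M2 replicate 3 (0.0526). Opposite-strand genes, Gm20412 and Rprd1b, overlap 1003 exon bases of Tgm2 and 17.1% of its 75-base stretches occur in them, so part of its reads is uncertain.

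Chil3 (Ym1, a secreted chitinase-like protein), Retnla (RELM-alpha, also called FIZZ1) and Alox15 (a lipoxygenase that oxidises arachidonic and linoleic acid) did not pass the low-count filter and were not tested. Retnla had 2, 2 and 11 counts in the M2 libraries, 0.136, 0.263 and 0.157 CPM, and 0 in all other libraries. Chil3 had 7, 0 and 2 counts in M2 and 0 in all others, and 13% of its 75-base stretches also occur in Chil4 and Gm6522. Alox15 had at most 4 counts in any library, in 1 library of each group, so no group stood out. Means in M2 were 0.169 CPM for Chil3 and 0.186 CPM for Retnla, below the 0.207 CPM that 3 counts per M0 library would give, and no fold is given. Their reads appeared with IL-4 and in no other group, for Retnla in each M2 library. At these counts a difference from M0 was not tested.

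Levels of different genes were compared per length, as CPM per kb of exon. In M2 cells Mgl2 had 234 ± 39.5 CPM per kb (SD, n = 3), Clec10a 67.6 ± 5.49 and Ccl24 17.5 ± 3.06. Tgm2 followed at 2.09 ± 0.0117 and Il4ra at 0.610 ± 0.338, with Retnla at 0.310 ± 0.113, Ccl17 at 0.215 ± 0.198 and Ccl22 at 0.175 ± 0.0796 overlapping each other within their SD. In M1 cells the leading level per kb was that of Ccl22 (17.5 ± 4.03), followed by Ccl17 (11.6 ± 0.320). Tgm2 (4.43 ± 1.12) and Clec10a (3.58 ± 0.408) came next and lay within their SD of each other. In M0 cells Clec10a (5.40 ± 0.463) and Tgm2 (3.94 ± 0.863) led, and the other members were at or below the 1.08 ± 0.444 CPM per kb of Mgl2. Exon lengths were taken from a GRCm38 annotation, an older build than that of the counts.

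**Figure D3:**
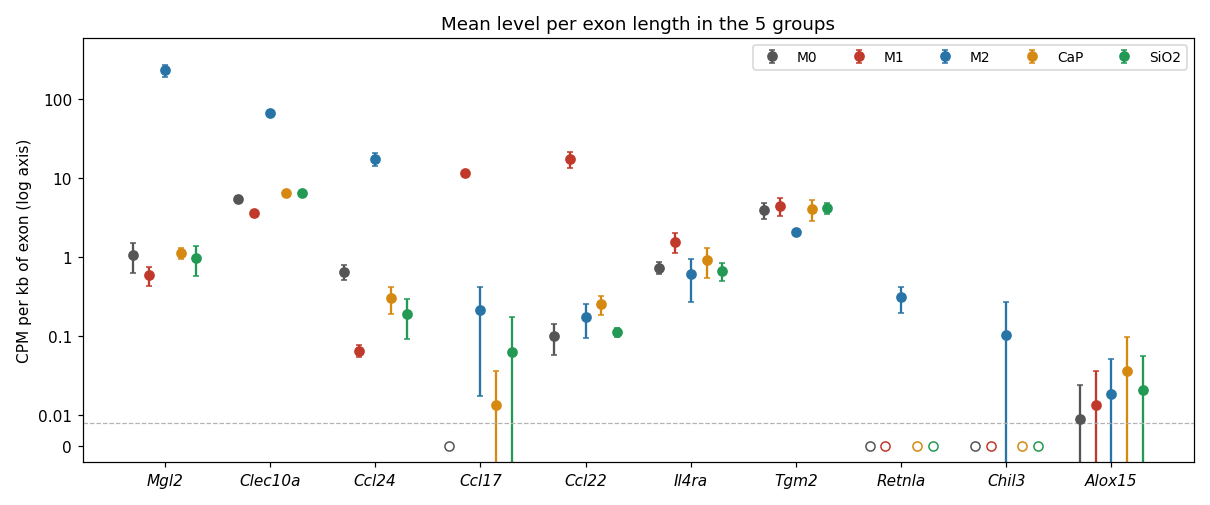
Mean CPM per kb of exon (log axis) of the 10 genes in the 5 groups, with the SD of 3 libraries, drawn to the bottom of the axis where the SD exceeds the mean, and means of 0 drawn open below the dashed line. Mgl2 reaches 234 CPM per kb in M2, whereas Ccl22 at 17.5 and Ccl17 at 11.6 lead in M1.

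Microrods were examined for the same genes. Of the 7 tested members 0 were called in CaP-exposed cells (0.654% of genes were called) and 0 in SiO2-exposed cells (0.264%) by edgeR, and 0 in both by DESeq2 (2.77% and 0.781%). An unadjusted p below 0.05 was found for 2 members with CaP and 1 with SiO2. No share over all genes was taken for this count, so it is not read as a result about the members. The lectin Mgl2 stood at 2.54, 1.91 and 2.64 CPM with CaP and at 2.59, 1.06 and 2.50 CPM with SiO2, within or near the M0 range. A normal approximation from the SE gave 95% intervals of its log2 fold change, which are somewhat too narrow with 3 libraries per group. They ran from -0.57 to 0.65 for CaP and from -0.79 to 0.50 for SiO2, far from the 7.69 of M2.

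Clec10a had 18.6, 18.3 and 19.7 CPM with CaP and 19.4, 18.2 and 19.1 CPM with SiO2. All 6 libraries lay above the highest M0 library at 16.7 CPM, with a log2 fold change of 0.27 ± 0.14 in both groups (adjusted p = 0.353 and 0.670). Ccl24 went the other way, with 0.492, 0.460 and 0.224 CPM for CaP and 0.245, 0.378 and 0.119 CPM for SiO2, all below the lowest M0 library at 0.659 CPM. Its log2 fold changes were -1.02 ± 0.34 (adjusted p = 0.167) and -1.79 ± 0.42 (adjusted p = 0.119), and in the SiO2 libraries it rested on 5, 5 and 3 counts. Ccl22 measured 0.554, 0.460 and 0.773 CPM with CaP, above every M0 library (log2 fold change 1.61 ± 0.47, adjusted p = 0.125), and 0.245, 0.303 and 0.238 CPM with SiO2, within the M0 range. In CaP cells 2 tested members lay wholly above M0 and 1 wholly below, where 7.33% and 10.1% of all genes did so, and in SiO2 cells 1 lay above and 1 below, where 9.10% and 8.87% of all genes did. All microrod, M1 and M2 values share the 3 M0 libraries.

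Tgm2 read 12.3, 22.4 and 21.2 CPM with CaP and 17.6, 22.9 and 17.7 CPM with SiO2, and Il4ra 2.95, 6.51 and 7.08 CPM with CaP and 2.89, 4.92 and 4.28 CPM with SiO2. Both genes overlapped M0 in both groups. Summed over 3 libraries, Ccl17 had 1 count with CaP and 2 with SiO2, and Retnla and Chil3 had 0. Between the microrod materials 0 of the 7 tested members were called (0.0180% of genes by edgeR, and 0.102% and 0 members by DESeq2). An unadjusted p below 0.05 was found for 1 of them, again without a share over all genes. This was Ccl22, whose log2 difference was 1.26 ± 0.44 (adjusted p = 1). For Clec10a, the most precise of them, the CaP to SiO2 log2 difference had a 95% interval from -0.27 to 0.27. This interval was made as for Mgl2 above and is likewise somewhat too narrow.

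**Figure D4:**
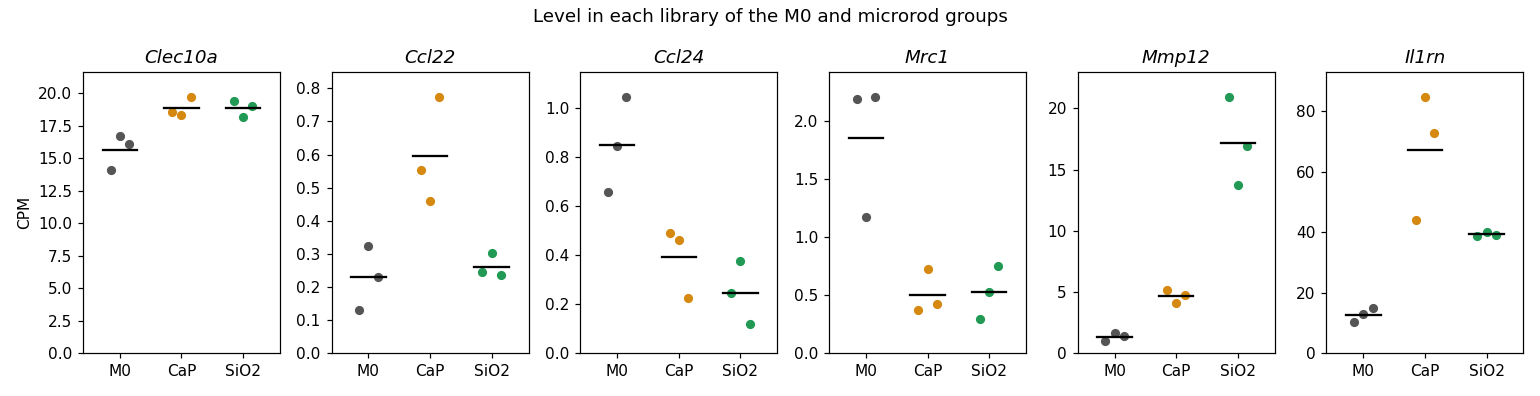
CPM (linear axes from 0) in each M0, CaP and SiO2 library for Clec10a, Ccl22 and Ccl24 and for Mrc1, Mmp12 and Il1rn of the IL-4-responsive list, with a line at each mean. Clec10a is above and Ccl24 below M0 in both microrod groups without a call, whereas Mmp12 and Il1rn were called higher in both. Il1rn was not called higher with IL-4.

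The receptor machinery around Il4ra was followed in a list of 17 signalling genes, of which 13 were tested. In M2 cells 2 rose, 1 fell and 10 were not called, where 2.00% of all genes tested rose and 2.13% fell. Cish, a feedback inhibitor that STAT proteins induce, stood at 48.7, 37.5 and 31.9 CPM in M2 and had 5, 1 and 0 counts in M0 (log2 fold change 8.61 ± 0.52, adjusted p = 3.08e-08). Socs1, an inhibitor of Janus kinases, read 75.3, 12.5 and 139 CPM in M2 against 0.369, 0.520 and 0.463 CPM in M0 (7.47 ± 0.95, adjusted p = 0.000404). The log2 fold change of Socs1 was 6.69 without M2 replicate 3, and that of Cish was 9.69 without M0 replicate 1. Among the M2 libraries, replicate 2, with little Il4ra, was lowest for Socs1 and Stat6. It was highest for Il2rg and Il13ra1 and in between for Cish, and a link to Il4ra was not tested. Il13ra1, the receptor chain shared with IL-13, fell from 17.2, 13.9 and 21.3 CPM to 5.94, 7.50 and 6.30 CPM (-1.42 ± 0.20, adjusted p = 0.00106), a call lost with only the 6 libraries compared (0.0885). Stat6 measured 59.2, 31.2 and 46.2 CPM in M2 and 25.1, 36.2 and 29.9 CPM in M0 (adjusted p = 0.502), and Il2rg 243, 477 and 183 CPM against 280.4, 235 and 334 CPM (adjusted p = 0.913). The list's median log2 fold change was 0.59, against 0.07 for all genes tested.

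In M1 cells 6 of the 13 rose and 0 fell, where 9.70% and 4.37% of all genes tested did. Of the 6, Jak2 was lost in 10 of the 15 fits that left out 1 library (adjusted p up to 0.158 without M1 replicate 1) and Tyk2 with only the 6 libraries compared (0.0691). Cish had 45, 70 and 88 counts (5.82 ± 0.58, adjusted p = 3.17e-06, and 6.89 without M0 replicate 1), and Socs3, the inhibitor of cytokine receptors of the IL-6 type, rose from 2.12 to 66.7 CPM on average (4.99 ± 0.41, adjusted p = 2.07e-06). Socs1 rose as well (3.97 ± 0.99, adjusted p = 0.0152), a call lost without M0 replicate 1 (0.0905) or M1 replicate 3 (0.0575). With microrods 0 of the 13 were called in either group, where 0.654% of all genes tested were with CaP and 0.264% with SiO2. At these shares 0 of 13 does not set the list apart from other genes. The receptors of the chemokines, Ccr4, Ccr3, Ackr2 and Ackr1, were not tested, having at most 7 counts summed over any group.

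A second list held 28 other genes commonly raised by IL-4 in macrophages, of which 27 were matched and 16 tested. In M2 cells 10 of the 16 rose and 0 fell, where 2.00% and 2.13% of all genes tested did. The median log2 fold change was 1.81, against 0.07 for all genes tested, but genes pass the low-count filter more easily when some group is high. Of the 10, Flt1 was lost in 6 of the 15 fits that left out 1 library. With only the 6 libraries compared, Flt1 (adjusted p = 0.188), Ptgs1 (0.104) and Cd200r1 (0.144) were not called. The calls of Ptgs1 (0.0573) and Cd200r1 (0.0620) were also lost without M0 replicate 1. Arg1, arginase 1, which turns arginine into ornithine, went from 9.80, 8.46 and 14.7 CPM in M0 to 1724, 1545 and 1382 CPM in M2 (143-fold, 7.16 ± 0.29, adjusted p = 6.91e-09). Irf4, a transcription factor of the programme, rose 15.8-fold (3.98 ± 0.32, adjusted p = 3.04e-06) and Mrc1, the mannose receptor, 14.7-fold (3.88 ± 0.29, adjusted p = 3.04e-06). Pdcd1lg2, the checkpoint ligand PD-L2, had 15, 6 and 53 counts in M2 against 2, 1 and 0 in M0, at least 4.14-fold higher (adjusted p = 0.00459), a call lost without M0 replicate 1 (0.0902). Mmp12, macrophage elastase, rose 9.15-fold (3.19 ± 0.35, adjusted p = 0.000102). The near-zero Retnla and Chil3 thus stood beside an Arg1 at 1550 ± 171 CPM in the same 3 libraries.

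**Figure D5:**
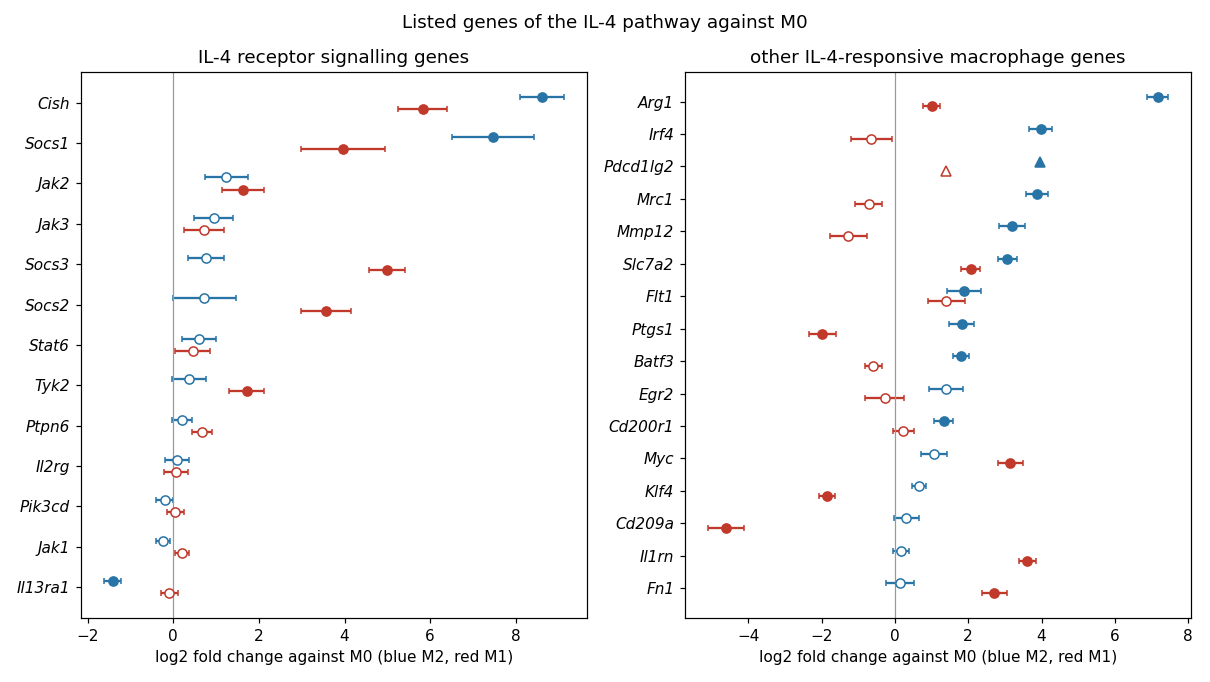
Log2 fold change against M0, with SE, of the tested genes of both lists in M2 (blue) and M1 (red). Filled symbols were called, and triangles have a group at the floor of 3 counts. Arg1, Cish and Socs1 lead in M2, and Cd209a, Ptgs1 and Klf4 are called lower in M1.

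In M1 cells 5 of the 16 genes of the second list rose and 3 fell, where 9.70% and 4.37% of all genes tested did. Il1rn, the IL-1 receptor antagonist, rose to 155, 155 and 153 CPM from 10.4, 13.01 and 14.9 CPM (3.61 ± 0.23, adjusted p = 2.17e-07), and Myc (3.15 ± 0.34, adjusted p = 3.03e-05) and fibronectin, Fn1 (2.71 ± 0.35, adjusted p = 0.000131), rose with it. Cd209a, a C-type lectin, fell from 21.7, 16.3 and 20.2 CPM to 1.03, 0.889 and 0.389 CPM (-4.61 ± 0.49, adjusted p = 2.15e-05). Ptgs1, the constitutive cyclooxygenase (-1.98 ± 0.36, adjusted p = 0.00223), and the transcription factor Klf4 (-1.85 ± 0.22, adjusted p = 6.58e-05) fell too. The M1 stimulus itself was checked on 10 LPS and IFN-γ response genes, of which 9 were tested. The gene not tested, Cxcl9, had 0 counts in all M1 libraries. Of the 9 tested 8 were higher and 1 lower, where 9.70% and 4.37% of all genes tested were. The lower gene was Irf1 (-0.77 ± 0.22, adjusted p = 0.0290). Its call was lost in 5 of the 15 fits without 1 library (up to 0.0956 without M0 replicate 2) and without the low-count filter (0.210).

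With microrods the second list gave 2 higher and 1 lower in CaP cells and 2 higher in SiO2 cells, where 0.654% and 0.264% of all genes tested were called. One of those higher in both, Il1rn, was not called with IL-4, at 14.1 ± 1.81 CPM in M2 against 12.8 ± 2.29 CPM in M0 (SD, n = 3). Il1rn read 44.0, 84.5 and 72.6 CPM with CaP (2.41 ± 0.23, adjusted p = 0.000142) and 38.7, 40.2 and 39.1 CPM with SiO2 (1.64 ± 0.22, adjusted p = 0.00545), the latter call lost without M0 replicate 1 (0.0730) and with only the 9 M0 and microrod libraries (0.0723). With only the 6 libraries compared both Il1rn calls were lost (0.0553 with CaP and 0.0660 with SiO2). Mmp12 stood at 5.15, 4.08 and 4.76 CPM with CaP (1.83 ± 0.35, adjusted p = 0.0327) and at 20.9, 13.8 and 17.0 CPM with SiO2 (3.70 ± 0.34, adjusted p = 0.000616), against 1.05, 1.69 and 1.39 CPM in M0. The CaP call for Mmp12 was lost in 7 of the 15 fits that left out 1 library, with an adjusted p of up to 0.297 without M0 replicate 1, and with only the 6 libraries compared (0.133). Mrc1 measured 0.369, 0.723 and 0.424 CPM with CaP, below the 2.19, 1.17 and 2.20 CPM of M0 (-2.02 ± 0.37, adjusted p = 0.0231), a call lost in 4 of the 15 fits, with 0.250 without M0 replicate 1, and also with the 9 M0 and microrod libraries (0.0714) and the 6 compared (0.200). Between the materials Mmp12 had an adjusted p of 0.0562 and Il1rn of 1.

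The genes whose pattern over the 15 libraries was most like the mean of the 7 tested members, among genes outside the lists with at least 5 CPM in a group, were Glipr2, Sema4a, Creb5, Pirb and Sla. Pearson's r of their log2 CPM with the mean standardised level lay between 0.930 and 0.957, over libraries that share groups, depth and scaling. All 5 had higher means in both M1 and M2 than in M0, for instance Glipr2 at 22.0 and 20.3 CPM against 3.49 CPM. The single members were less like their own mean, from -0.14 for Tgm2 to 0.67 for Ccl17, and the mean joins genes high in M1 with genes high in M2.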

How the data were processed

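Libraries were Smart-seq2 cDNA, read as pairs of 75 bases. The authors aligned with STAR and quantified with Salmon through nf-core/rnaseq (Ensembl, GRCm39) and deposited raw counts per gene for 15 libraries, as whole numbers that may be rounded Salmon estimates. Tests were run in edgeR 4.0.16 under R 4.3.3 (filterByExpr by group, TMM, quasi-likelihood test with 1 coefficient per group, Benjamini-Hochberg adjustment over the 16654 genes tested) and with DESeq2 1.42.0, which the authors used, as an alternative. The thresholds for a call, 0.05 and 0.5, are those of the study. Symbols were found for 51487 identifiers, and names and exon lengths came from a GRCm38 annotation. The members and lists were chosen with earlier results of these data known. Beside the members, the text names from each pathway or response list up to 3 called genes per direction in M2 and M1 against M0, by size of change, all called with microrods, and Stat6, Il2rg and Il13ra1. Some further called genes are named where they bear on a count. Replicate numbers were not used to pair the libraries. Deviations of same-numbered libraries from their group means correlated from -0.70 to 0.60, negative in 15 of 30 pairs of libraries. Those of other-numbered libraries correlated from -0.66 to 0.73, negative in 29 of 60 pairs. Deviations within groups of 3 depend on each other, so these values cannot exclude a pairing. Replicates differed by more than sampling noise (chi-square per gene of 6.91 or more). With 3 libraries against 3, an exact permutation test cannot give a p below 0.1, so the p-values are those of the models over all genes. The test was also tried on simulated counts, but the outcome is not given here and no statement rests on it. Each call was recomputed under other filters, scalings and models and without each library.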

Additional observations from a re-analysis of the deposited data

How the results depend on the processing

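Among the other settings, 1 moved a count of members called by over 1.5 times. With at least 10 counts required in every library, 1 member was called in M1 against M0 and 3 in M2 against M1, since Ccl17, Ccl22 and Ccl24 are then not tested. Leaving out 1 library gave 3 to 4 calls for M2 against M0, 3 to 4 for M1 against M0, 5 to 7 for M2 against M1 and 0 in each microrod comparison. With a replicate block 4 members were called in M2 against M0 (Tgm2 was added) and the other counts of members did not change. The legacy quasi-likelihood of edgeR, added after seeing the data, changed no member's call. Counts over all genes moved more. M2 against M0 went from 687 to 1141 without a filter and to 98 with only the 6 libraries compared, and leaving out M0 replicate 1 gave 316 and M2 replicate 2 gave 1361. CaP against M0 went from 109 to 461 with DESeq2, 968 without a filter, 59 with the block and with the legacy model, 68 with the 9 M0 and microrod libraries and 7 with 6 libraries, and SiO2 from 44 to 130, 205, 19, 34, 10 and 1. Without M0 replicate 1 these were 30 and 8, and without M2 replicate 2 CaP reached 324. M2 against M1 went from 2679 to 4407 without a filter, 1377 with 6 libraries, 1764 without M2 replicate 3 and 4270 without M2 replicate 2, M1 against M0 from 2342 to 1511 without M1 replicate 3, and CaP against SiO2 from 3 to 17 with DESeq2, 104 without a filter and 8 without M2 replicate 2. Among the listed genes named, the block lost Tnf (adjusted p = 0.0717, edgeR) and Cxcl10 (0.0607) in M2 and, with CaP, Mmp12 (0.0644) and Mrc1 (0.0579), and the legacy model lost Mmp12 (0.0766). Small differences that were not called changed sign with 1 library left out, and the cause was not tested. On the log2 scale against M0 these ranged from -0.37 to 0.16 for Il4ra in M2, from -0.025 to 0.37 for Tgm2 in M1, from -0.16 to 0.27 for Mgl2 and -0.16 to 0.26 for Tgm2 with CaP, and from -0.34 to 0.11 for Mgl2, -0.19 to 0.73 for Ccl22, -0.28 to 0.062 for Il4ra and -0.091 to 0.24 for Tgm2 with SiO2. Between CaP and SiO2 they ranged from -0.076 to 0.35 for Mgl2, -0.049 to 0.019 for Clec10a and -0.21 to 0.16 for Tgm2, and Clec10a was 0.0114 without a filter and 0.00345 with at least 10 counts in every library. Depth limits Chil3, Retnla, Alox15 and, outside M1, Ccl17, which had at most 14 counts in any library there.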

Other observations

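Of the 9 tested LPS and IFN-γ response genes 1 was called higher and 2 lower in M2 against M0, where 2.00% and 2.13% of all genes were. The costimulatory receptor Cd40 rose with IL-4, from 33.2, 33.4 and 37.9 CPM to 76.9, 101 and 54.0 CPM (1.14 ± 0.19 on the log2 scale, adjusted p = 0.00323, edgeR), a call lost with only the 6 libraries compared (0.167). The cytokine gene Tnf fell from 19.3, 35.8 and 25.0 CPM to 14.9, 7.11 and 11.7 CPM (-1.22 ± 0.30, adjusted p = 0.0359), and the chemokine Cxcl10 from 1.76, 1.89 and 3.24 CPM to 0.682, 1.18 and 0.830 CPM (-1.33 ± 0.35, adjusted p = 0.0493). The Tnf call was lost in 5 of the 15 fits without 1 library (adjusted p up to 0.113 without M0 replicate 2) and the Cxcl10 call in 11 (up to 0.231 without M2 replicate 3). Both were lost with a replicate block (0.0717 for Tnf and 0.0607 for Cxcl10) and with only the 6 libraries compared (0.264 and 0.279), and Cxcl10 also without the low-count filter (0.0712) and with DESeq2's size factors (0.0581). In M1 cells Il6 was at least 248-fold and Nos2 at least 29.9-fold above the M0 floor, and Il1b rose from 1.07 to 411 CPM on average (8.69 ± 0.51, adjusted p = 8.97e-08).

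Arg1 is given here for the microrod groups. It stood at 4.63, 5.06 and 5.76 CPM with CaP and at 10.8, 10.6 and 17.9 CPM with SiO2, against 9.80, 8.46 and 14.7 CPM in M0. The CaP to SiO2 log2 difference of -1.35 ± 0.24 had an unadjusted p of 5.74e-05 and an adjusted p of 0.123 in the edgeR model, and CaP against M0 an adjusted p of 0.0641, so neither was called. These comparisons were chosen after the values were seen.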
